A study of Mus musculus with 12 samples.

Results

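The dual-specificity MAP kinase phosphatases Dusp1, Dusp4, Dusp5, Dusp6, Dusp7, Dusp8, Dusp10 and Dusp16 were described by their liver transcript levels. These 8 genes were taken by symbol from the 24033 symbols of the deposited expression table, and all 8 were among the 12965 genes tested. The RNA came from livers of wild-type C57BL/6 female mice, whose age the labels do not give, and was sequenced in 12 libraries in 4 groups of 3. Intact females received PBS as vehicle or dexamethasone, a synthetic glucocorticoid, at 1 mg/kg, and ovariectomized females received the same vehicle or the same dose. All livers were collected 6 h after treatment. Ovariectomy removes the ovaries, the main source of oestrogen, and hormone levels of the animals are not stated. The labels do not say that replicates were separate animals, so p-values measure only the spread between these samples, which may be technical.

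MAP kinases carry signals from growth factors, stress and cytokines to the nucleus, and the phosphatases of the Dusp family switch them off by removing phosphate from both the threonine and the tyrosine of the activation loop. Dusp1, Dusp4 and Dusp5 are inducible nuclear enzymes, Dusp6 and Dusp7 are cytoplasmic enzymes directed at ERK, and Dusp8, Dusp10 and Dusp16 act mainly on the stress kinases JNK and p38. Many of these genes are themselves switched on by the kinases they restrain, and Dusp1 is a known glucocorticoid-induced gene.

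The bases upstream of the start sites are shown for 4 members, Dusp1 and Dusp8, which were higher with dexamethasone in intact females, and Dusp5 and Dusp6, which were lower with it in ovariectomized females. RefSeq promoters (build GRCm38.p6, not the build of the expression table) matched 7 of the 8 members by symbol, all but Dusp4. Each sequence is the 250 bases before the start, 5′ to 3′ on the gene's strand. Capitals mark the cAMP response element TGACGTCA or its shortened form TGACGTC in Dusp1 and Dusp8 and the CArG box, the serum response element core, in Dusp5. Dusp1 lies at chr17:26508473-26508722 on the minus strand, Dusp8 at chr7:142095285-142095534 on the minus strand, Dusp5 at chr19:53528895-53529144 on the plus strand and Dusp6 at chr10:99262981-99263230 on the plus strand.
Dusp1: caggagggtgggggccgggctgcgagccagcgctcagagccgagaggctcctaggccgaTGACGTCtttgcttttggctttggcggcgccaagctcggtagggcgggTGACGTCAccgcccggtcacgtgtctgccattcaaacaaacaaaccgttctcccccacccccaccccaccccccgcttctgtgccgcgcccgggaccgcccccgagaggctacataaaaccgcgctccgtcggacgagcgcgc
Dusp8: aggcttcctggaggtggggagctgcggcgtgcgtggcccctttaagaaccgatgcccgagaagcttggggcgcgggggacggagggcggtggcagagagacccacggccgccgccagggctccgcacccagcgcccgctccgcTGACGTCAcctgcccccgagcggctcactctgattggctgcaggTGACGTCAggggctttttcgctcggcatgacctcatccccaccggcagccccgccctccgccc
Dusp5: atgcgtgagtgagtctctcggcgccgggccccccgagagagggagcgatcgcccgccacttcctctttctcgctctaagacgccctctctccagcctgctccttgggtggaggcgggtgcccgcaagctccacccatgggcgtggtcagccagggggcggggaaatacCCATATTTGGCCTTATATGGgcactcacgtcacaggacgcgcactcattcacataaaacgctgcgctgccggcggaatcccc
Dusp6: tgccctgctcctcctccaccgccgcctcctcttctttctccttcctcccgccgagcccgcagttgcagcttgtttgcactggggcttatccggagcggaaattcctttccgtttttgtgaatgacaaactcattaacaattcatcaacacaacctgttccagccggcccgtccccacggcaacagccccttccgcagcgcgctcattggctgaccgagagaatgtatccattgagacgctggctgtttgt

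The full element TGACGTCA, searched on both strands, occurred in 2 of the 7 matched promoters, against 1.55% of 32851 RefSeq promoter windows of the same length. Dusp1 held it once, starting 143 bases before the start site, and held a separate TGACGTC 191 bases before it. Dusp8 held it at 107 and at 63 bases before the start. TGACGTC, which is contained in the full element, occurred in 2.78% of the windows. The shorter core TGACG, found in 17.8% of the windows, also occurred in Dusp5 and Dusp16. It is not marked in the Dusp5 sequence. Dusp5 held 2 adjacent CArG boxes, at 82 and 72 bases before the start, and a CArG box occurred in 1.47% of the windows. The full glucocorticoid response element, AGAACA and TGTTCT with 3 bases of any kind between them (0.00913% of windows), its core AGAACA (16.1%), the ETS motif CCGGAAG (6.91%) and the AP-1 motif TGANTCA (6.75%) were not found in the windows of the 7 matched members. An E-box CACGTG (6.02% of windows) was found in Dusp1 alone among them. A match describes letters in this window and no match says only that these letters are not in it. The motifs were chosen after the values and sequences had been seen, and the windows were not matched for base composition. The shares of windows are thus a description and not a test.

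Levels are deposited log2 values, normalized between libraries by the authors, and the read depth behind them is unknown. A difference is given as limma's log2 fold change ± SE with 3 libraries per group, and a gene was called at a Benjamini-Hochberg adjusted p under 0.05 over all 12965 genes. The median tested gene stood at 8.82 to 8.86 in each library, and the root mean square gap between replicates was 0.172 to 0.32 per gene. The hepatocyte marker Alb averaged 21.79, the glucocorticoid target Fkbp5 rose by 1.28 ± 0.22 in intact (adjusted p = 0.000591) and by 2.29 ± 0.22 in ovariectomized females (adjusted p = 2.2e-05), and Tsc22d3 rose by 0.59 ± 0.15 (adjusted p = 0.00664) and 1.13 ± 0.15 (adjusted p = 0.000189). In whole liver, fewer cells of a type and less RNA per cell cannot be told apart. The comparisons share groups, so their values are not independent of each other: both the dexamethasone response of intact females and the difference with ovariectomy under vehicle are taken against the intact vehicle libraries.

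Per kilobase of exon, the mean log2 level over the 12 libraries was 8.17 for Dusp1, 8.04 for Dusp6, 6.90 for Dusp16, 5.93 for Dusp7, 5.31 for Dusp10, 3.12 for Dusp8, 2.92 for Dusp4 and 2.87 for Dusp5. Dusp1, Dusp16 and Dusp6 were thus the abundant members of liver, and their unscaled means stood at percentiles 69.9, 69.2 and 66 of the genes tested. Dusp8 stood at percentile 10.4, Dusp4 at 2.71 and Dusp5 at 1.18, near the floor of a mean of 4 that genes had to pass. If the authors' transformation shrank low values, which was not tested, the fold changes of Dusp4, Dusp5 and Dusp8 are understated. Of the remaining classical family members, Dusp2 lay between 3.93 and 4.67 and Dusp9 between 2.85 and 3.33, below the floor.

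**Figure D1:**
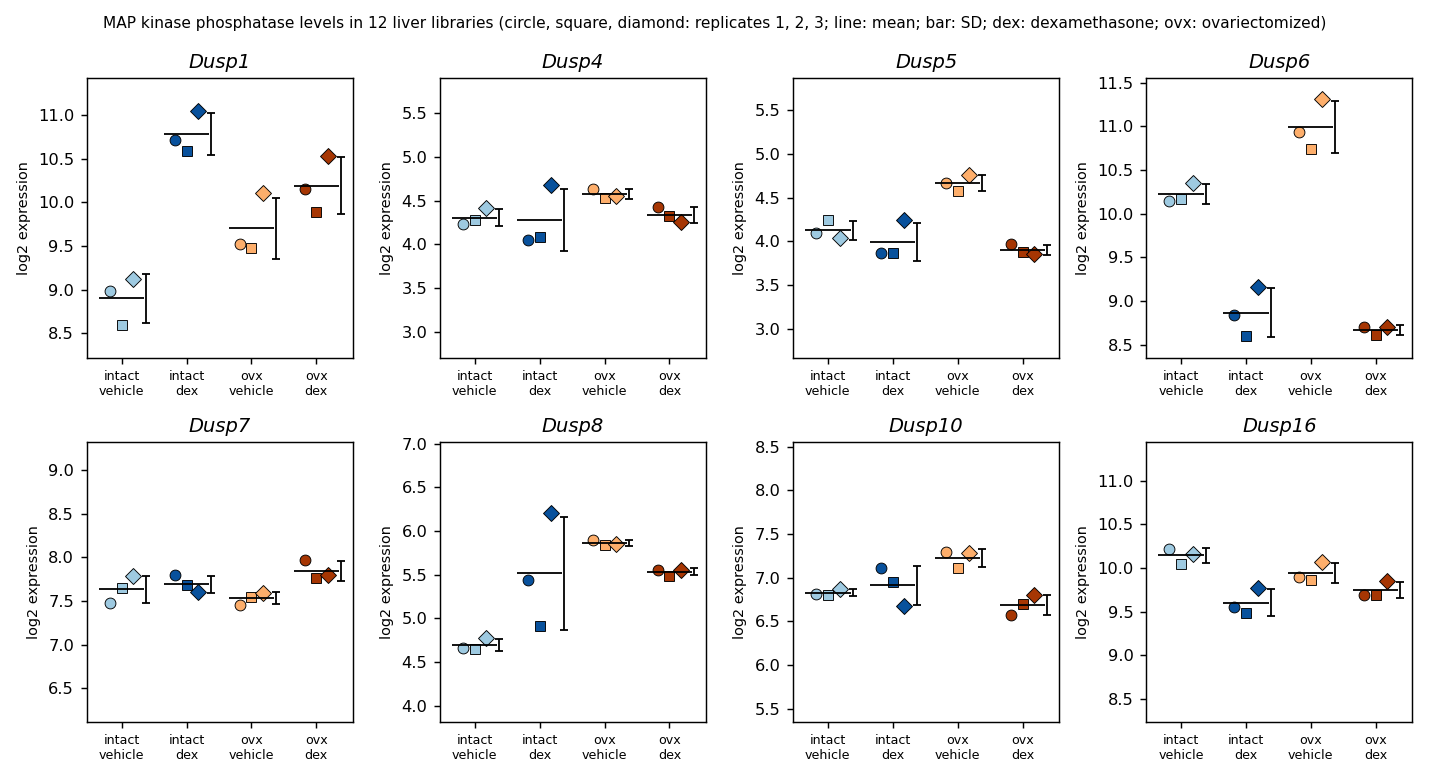
Deposited log2 expression (vertical axis, the same span in every panel) of each phosphatase in the 4 groups (horizontal axis), with a circle, square or diamond for replicates 1, 2 and 3, a line for the mean and a bar for the SD. Dusp1 is highest in the intact dexamethasone libraries (10.59 to 11.05), and Dusp6 is highest in the ovariectomized vehicle libraries (10.74 to 11.31).

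Among the nuclear enzymes, Dusp1, which acts on p38, JNK and ERK, spanned the widest rise. Its levels were 8.98, 8.59 and 9.13 in the intact vehicle libraries and 10.71, 10.59 and 11.05 in the intact dexamethasone libraries. They were 9.52, 9.48 and 10.10 in ovariectomized females under vehicle and 10.16, 9.89 and 10.54 under dexamethasone. The intact groups did not overlap, while the ovariectomized groups overlapped, since the third vehicle library lay above the second dexamethasone library. Dusp1 rose by 1.88 ± 0.21 with dexamethasone in intact females, a 3.69-fold difference (adjusted p = 3.59e-05). In ovariectomized females the difference was 0.49 ± 0.21 (95% interval 0.04 to 0.94) and did not pass (adjusted p = 0.0766). It passed without the third ovariectomized vehicle library (0.69, adjusted p = 0.0219) or without the second ovariectomized dexamethasone library (0.64, adjusted p = 0.0391).

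The response of Dusp1 was 1.39 ± 0.29 log2 units smaller in ovariectomized than in intact females (adjusted p = 0.00616). Under vehicle, ovariectomized females had 0.80 ± 0.21 more Dusp1 (1.74-fold, adjusted p = 0.0143), a call lost without the third ovariectomized vehicle library (0.60, adjusted p = 0.0539). Under dexamethasone they had 0.59 ± 0.21 less, with no overlap between the groups, which did not pass (adjusted p = 0.0775). The order of the group means was intact dexamethasone, ovariectomized dexamethasone, ovariectomized vehicle and intact vehicle, and of these neighbours only the middle pair overlapped.

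Dusp5, a nuclear phosphatase specific for ERK, was low in liver but followed a sharp pattern. Its levels were 4.10, 4.24 and 4.04 in intact vehicle, 3.87, 3.86 and 4.25 in intact dexamethasone, 4.66, 4.58 and 4.76 in ovariectomized vehicle and 3.96, 3.88 and 3.86 in ovariectomized dexamethasone libraries. All 3 ovariectomized vehicle libraries lay above the other 9 libraries. Dusp5 was 0.54 ± 0.12 higher with ovariectomy under vehicle (adjusted p = 0.00665) and fell by 0.77 ± 0.12 with dexamethasone in ovariectomized females (adjusted p = 0.000462). In intact females the difference with dexamethasone was -0.13 (95% interval -0.39 to 0.12, adjusted p = 0.371), and the responses differed by -0.63 ± 0.17 (adjusted p = 0.0184). In the GRCm38 annotation 22.1% of the Dusp5 exon bases overlap AC137853.2 on the opposite strand. The counting is not stated to use strand, so reads from these 2 genes cannot be told apart. Such overlaps covered 1.36% of Dusp8 (Gm32786) and 0.332% of Dusp1 (Ergic1) exon bases.

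Dusp4, a nuclear enzyme that acts on ERK and JNK, varied least by group means, over a range of 0.30. Its levels ran from 4.05 to 4.68 over all 12 libraries, and both extremes were intact dexamethasone libraries. In the 5 comparisons it did not pass limma's test, also at an unadjusted p under 0.05. With dexamethasone these were -0.03 in intact females (95% interval -0.36 to 0.29, adjusted p = 0.87) and -0.24 in ovariectomized females (-0.56 to 0.09, adjusted p = 0.224). With ovariectomy under vehicle the difference was 0.27 (-0.06 to 0.59, adjusted p = 0.203), and under dexamethasone it was 0.06 (-0.26 to 0.39). The former passed without the third intact dexamethasone library (adjusted p = 0.0479), whose removal leaves its value as it was and narrows the shared spread. The Dusp4 groups did not overlap with ovariectomy under vehicle or with dexamethasone in ovariectomized females, as for 45.0% and 54.6% of all genes.

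Of the cytoplasmic ERK phosphatases, Dusp6 had the largest change of the 8 members with dexamethasone in ovariectomized females, and with dexamethasone it fell where Dusp1 rose in intact females. Its transcription is known to depend on ERK signalling, and it is widely read as a marker of that pathway. Dusp6 levels were 10.14, 10.17 and 10.36 in intact vehicle libraries and 8.84, 8.60 and 9.15 in intact dexamethasone libraries. They were 10.93, 10.74 and 11.31 in ovariectomized vehicle libraries and 8.70, 8.61 and 8.70 in ovariectomized dexamethasone libraries. Both dexamethasone groups lay wholly below both vehicle groups, and the 2 dexamethasone groups overlapped each other.

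Dusp6 fell by 1.36 ± 0.15 with dexamethasone in intact females (2.57-fold lower, adjusted p = 3.54e-05) and by 2.33 ± 0.15 in ovariectomized females (5.01-fold lower, adjusted p = 1.43e-06). The fall was 0.97 ± 0.21 larger after ovariectomy (adjusted p = 0.00746). Ovariectomized females had 0.77 ± 0.15 more Dusp6 under vehicle (1.71-fold, adjusted p = 0.00352), and under dexamethasone the difference was -0.19 ± 0.15 (95% interval -0.52 to 0.13, adjusted p = 0.392). The 4 comparisons of Dusp6 that passed also passed under each of the alternatives run, leaving out any library included.

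Dusp7, the other cytoplasmic ERK phosphatase, had nearly level values. They were 7.47, 7.65 and 7.78 in intact vehicle, 7.79, 7.68 and 7.60 in intact dexamethasone, 7.46, 7.55 and 7.60 in ovariectomized vehicle and 7.98, 7.76 and 7.79 in ovariectomized dexamethasone libraries. It rose by 0.31 ± 0.09 with dexamethasone in ovariectomized females (1.24-fold, adjusted p = 0.0192). The call was lost without the first ovariectomized vehicle library (0.27, adjusted p = 0.0743) or the first ovariectomized dexamethasone library (0.24, adjusted p = 0.0797). In intact females the difference was 0.06 (95% interval -0.15 to 0.26), and the difference between the responses, 0.25 ± 0.13, did not pass (adjusted p = 0.172).

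Dusp8, which acts on JNK and p38, showed the largest difference with ovariectomy under vehicle of the 8 members. Its levels were 4.66, 4.65 and 4.77 in intact vehicle libraries and 5.90, 5.84 and 5.85 in ovariectomized vehicle libraries. Under dexamethasone they were 5.44, 4.91 and 6.20 in intact females and 5.56, 5.49 and 5.56 in ovariectomized females. The intact dexamethasone group was spread widely (SD 0.65), and the other groups had SDs of 0.035 to 0.065. Dusp8 was 1.17 ± 0.23 higher with ovariectomy under vehicle (2.25-fold, adjusted p = 0.00405) and rose by 0.82 ± 0.23 with dexamethasone in intact females (1.77-fold, adjusted p = 0.0118).

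The intact value of Dusp8 rests in part on the third intact dexamethasone library, without which it was 0.48 (adjusted p = 0.0135), and the call was lost in a fit of the 2 groups compared alone (adjusted p = 0.0514). That library was also the highest of its group for Dusp1, Dusp4, Dusp5, Dusp6 and Dusp16, and lowest for Dusp7 and Dusp10. Of the genes outside the members given by library, it was highest for Dusp2, Dusp9, Fkbp5 (13.07) and Tsc22d3 (11.75). In ovariectomized females the difference of Dusp8 was -0.33 ± 0.23, which did not pass (adjusted p = 0.276), although the groups did not overlap, and passed without the third intact dexamethasone library (adjusted p = 0.0439). The responses differed by -1.15 ± 0.33 (adjusted p = 0.025), or by -0.81 without the third intact dexamethasone library. This call was lost without the first intact vehicle library (adjusted p = 0.0535) or the first ovariectomized vehicle library (adjusted p = 0.0543).

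Dusp10, another phosphatase of JNK and p38, had levels of 6.81, 6.80 and 6.87 in intact vehicle libraries and 7.11, 6.95 and 6.67 in intact dexamethasone libraries. They were 7.29, 7.11 and 7.28 in ovariectomized vehicle libraries and 6.57, 6.70 and 6.80 in ovariectomized dexamethasone libraries. The ovariectomized groups did not overlap, and the intact dexamethasone libraries lay on both sides of their vehicle group. Dusp10 fell by 0.54 ± 0.11 with dexamethasone in ovariectomized females (adjusted p = 0.00235), and the difference in intact females was 0.08 (95% interval -0.15 to 0.32). The responses differed by -0.62 ± 0.15 (adjusted p = 0.0137). Under vehicle it was 0.40 ± 0.11 higher with ovariectomy (adjusted p = 0.0182). That call was lost without the first intact vehicle (adjusted p = 0.0568), the first ovariectomized vehicle (adjusted p = 0.0642) or the third ovariectomized vehicle library (adjusted p = 0.0586).

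Dusp16, which is directed mainly at JNK, was the third most abundant member per length. Its levels were 10.22, 10.05 and 10.16 in intact vehicle, 9.55, 9.48 and 9.78 in intact dexamethasone, 9.89, 9.87 and 10.07 in ovariectomized vehicle and 9.70, 9.69 and 9.85 in ovariectomized dexamethasone libraries. It fell by 0.54 ± 0.09 with dexamethasone in intact females (1.46-fold lower, adjusted p = 0.000381). In ovariectomized females the difference was -0.20 ± 0.09, and it did not pass (adjusted p = 0.0857), although the groups did not overlap, and passed without the third intact dexamethasone library (adjusted p = 0.0437). The difference between the responses was 0.34 ± 0.12 and did not pass (adjusted p = 0.0584). It passed without the second intact vehicle (adjusted p = 0.0439), the third intact dexamethasone (adjusted p = 0.0149) or the third ovariectomized vehicle library (adjusted p = 0.0397).

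**Figure D2:**
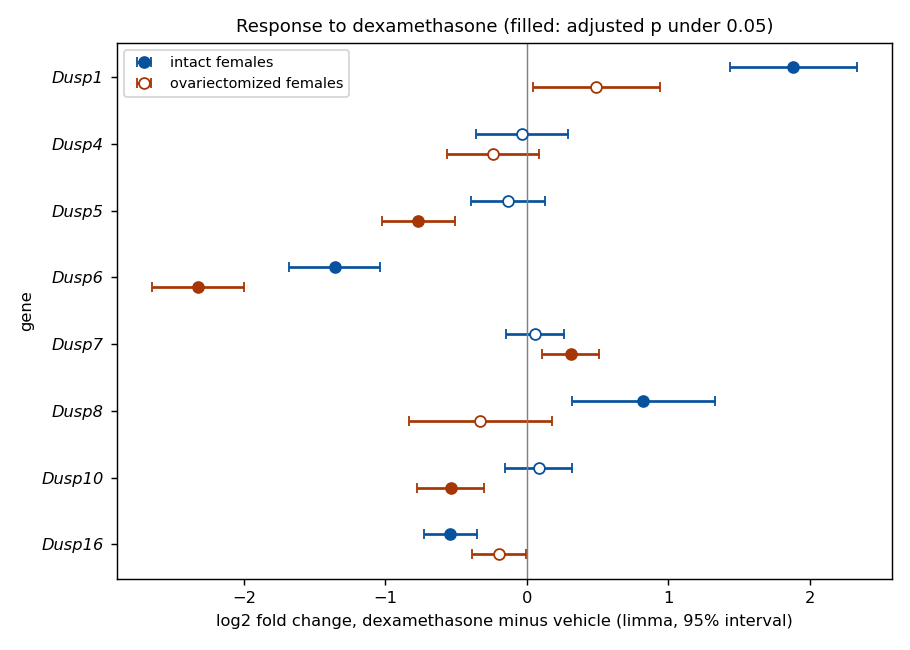
Log2 fold change with dexamethasone (horizontal axis, dexamethasone minus vehicle, with 95% intervals from limma) for each phosphatase (vertical axis) in intact and ovariectomized females; filled points passed at an adjusted p under 0.05. Dusp1 lies at 1.88 in intact and 0.49 in ovariectomized females, and Dusp6 at -1.36 and -2.33.

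As a set, the members split with dexamethasone. In intact females Dusp1 and Dusp8 rose (22.8% of all genes did), Dusp6 and Dusp16 fell (25.9% did) and 4 did not pass, with a median log2 fold change of 0.01, against 0.00 over all genes tested. Of all genes 48.8% were called in that comparison, so 4 called of 8 is near the background, and the groups did not overlap for 4 members, against 55.5% of all genes. Among genes called there with at least a 2-fold difference, which made up 2.41% of those tested, were Dusp1 and Dusp6. In ovariectomized females Dusp7 rose (21.3% of all genes did), Dusp5, Dusp6 and Dusp10 fell (19.4% did) and 4 did not pass, with a median of -0.28 against 0.00. The background there was 40.7% called, which 4 of 8 is also near, and Dusp6 alone of the members was called with at least a 2-fold difference, as were 2.77% of all genes. The groups did not overlap for 7 of the 8 members, against 54.6% of all genes.

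With ovariectomy under vehicle, Dusp1, Dusp5, Dusp6, Dusp8 and Dusp10 were higher, and 3 did not pass. The median over the 8 members was 0.47, against -0.01 over all genes, of which 27.9% were called and 12.4% were called higher. The groups did not overlap for 6 members, against 45.0% of all genes. Dusp8 was the only member called with at least a 2-fold difference, as were 0.509% of all genes. Without the third ovariectomized vehicle library, 3 members and 20.5% of all genes were called. Under dexamethasone, 0 of the 8 passed limma's test, where 12.8% of all genes were called, 7.74% higher and 5.08% lower. Dusp1 alone had an unadjusted p under 0.05 (0.0145), and it was the only member whose groups did not overlap, against 34.1% of all genes. The median there was -0.04, against 0.02 over all genes. Without the third intact dexamethasone library, Dusp10 passed in this comparison (-0.34, adjusted p = 0.0479).

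**Figure D3:**
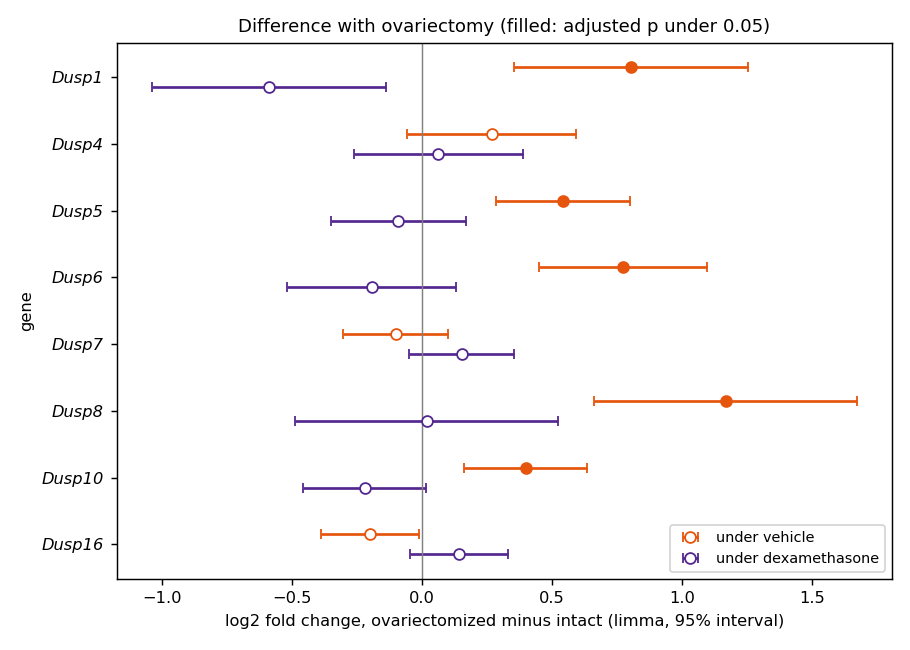
Log2 fold change with ovariectomy (horizontal axis, ovariectomized minus intact, with 95% intervals from limma) for each phosphatase (vertical axis) under vehicle and under dexamethasone; filled points passed at an adjusted p under 0.05. The 5 filled points are all under vehicle, from 0.40 for Dusp10 to 1.17 for Dusp8.

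The test of the difference between the 2 dexamethasone responses called 5 of the 8 members, against 24.9% of all genes, and all 5 were lower in ovariectomized females, as were 9.65% of all genes, while 15.3% were higher. These were Dusp1, Dusp5, Dusp6, Dusp8 and Dusp10, and the median over the members was -0.63, against 0.01 over all genes. Dusp1 and Dusp8 differed at least 2-fold, as did 1.27% of all genes. This comparison shares its vehicle libraries with that of ovariectomy under vehicle. Read side by side, the lower response took different forms. Dusp1 went from a rise of 1.88 to 0.49, Dusp8 from 0.82 to -0.33, Dusp10 from 0.08 to -0.54, Dusp5 from -0.13 to -0.77 and Dusp6 from -1.36 to -2.33.

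Transcripts of the kinase cascades that these enzymes restrain moved in both directions. The ERK cascade list holds receptors, adaptors, Ras and Raf proteins and the kinases below them, and in intact females 11 of its 20 genes fell and 1 rose on dexamethasone, where 25.9% of all genes fell and 22.8% rose. Among those that fell were the receptors Erbb3 (-1.21 ± 0.17, adjusted p = 0.000151) and Met (-0.90 ± 0.10, adjusted p = 4.94e-05). In ovariectomized females 4 rose and 5 fell, where 40.7% of all genes were called, including Egfr (0.69 ± 0.21, adjusted p = 0.021) and Mapk3, which encodes ERK1 (-0.65 ± 0.06, adjusted p = 1.84e-05). With ovariectomy under vehicle 5 of the 20 were lower, among them Erbb3 (-0.86 ± 0.17, adjusted p = 0.00355). Against 27.9% of all genes called there, 15.5% of them lower, that count is near the background. Under dexamethasone 0 of the 20 passed limma's test, where 12.8% of all genes were called. At an unadjusted p under 0.05, 6 were higher and 0 were lower, and the share of all genes at that threshold is not given here.

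Of 9 tested JNK cascade genes, 3 rose and 2 fell with dexamethasone in either gonadal state, against 48.8% of all genes called in intact and 40.7% in ovariectomized females. The scaffold gene Mapk8ip3 rose by 0.60 ± 0.09 in intact females (adjusted p = 0.000385), and the upstream kinase Map3k5 rose by 0.69 ± 0.13 in ovariectomized females (adjusted p = 0.00164). Of 12 p38 cascade genes, 3 rose and 1 fell in intact females, where 22.8% of all genes rose and 25.9% fell. In ovariectomized females 6 rose and 3 fell, where 21.3% of all genes rose and 19.4% fell. Mapk14, the main p38 kinase gene, rose by 0.67 ± 0.06 in ovariectomized females (adjusted p = 2.2e-05) and differed by 0.10 ± 0.06 in intact females (adjusted p = 0.211), and its responses differed by 0.57 ± 0.09 (adjusted p = 0.00157). Mapkapk2, a kinase activated by p38, was 0.55 ± 0.06 higher with ovariectomy under vehicle (adjusted p = 0.000275).

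The ERK feedback and target list holds genes, like Dusp6, whose transcription ERK signalling is known to raise, and 16 of its 19 genes were tested. In ovariectomized females 9 fell and 2 rose with dexamethasone (19.4% and 21.3% of all genes did), with a median of -0.36 against 0.00 over all genes. Those that fell included Egr1 (-1.45 ± 0.29, adjusted p = 0.00238), an immediate early transcription factor, and Ier3 (-1.37 ± 0.17, adjusted p = 0.000132). In intact females 6 fell and 4 rose (25.9% and 22.8% of all genes did), although the median of the 16 was 0.14. The feedback inhibitor Spry4 fell by 1.54 ± 0.28 in intact females (adjusted p = 0.000905) and by 1.39 ± 0.28 in ovariectomized females (adjusted p = 0.00227). Errfi1, an inhibitor of the EGF receptor, rose by 1.15 ± 0.25 (adjusted p = 0.00267) and 1.17 ± 0.25 (adjusted p = 0.00322). Thus members of this list fell beside Dusp6 in both gonadal states, and others rose.

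With ovariectomy under vehicle, 3 of these 16 genes were higher and 2 were lower, near the 27.9% of all genes called. Ier3 was higher by 1.39 ± 0.17 (adjusted p = 0.000422), Fos by 1.31 ± 0.32 (adjusted p = 0.011) and Spry2 by 0.31 ± 0.10 (adjusted p = 0.0341). The response to dexamethasone differed between gonadal states by -1.72 ± 0.24 for Ier3 (adjusted p = 0.000925) and by -1.58 ± 0.45 for Fos (adjusted p = 0.0251). For Spred2, a further ERK pathway inhibitor, it differed by 0.79 ± 0.21 (adjusted p = 0.0195).

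**Figure D4:**
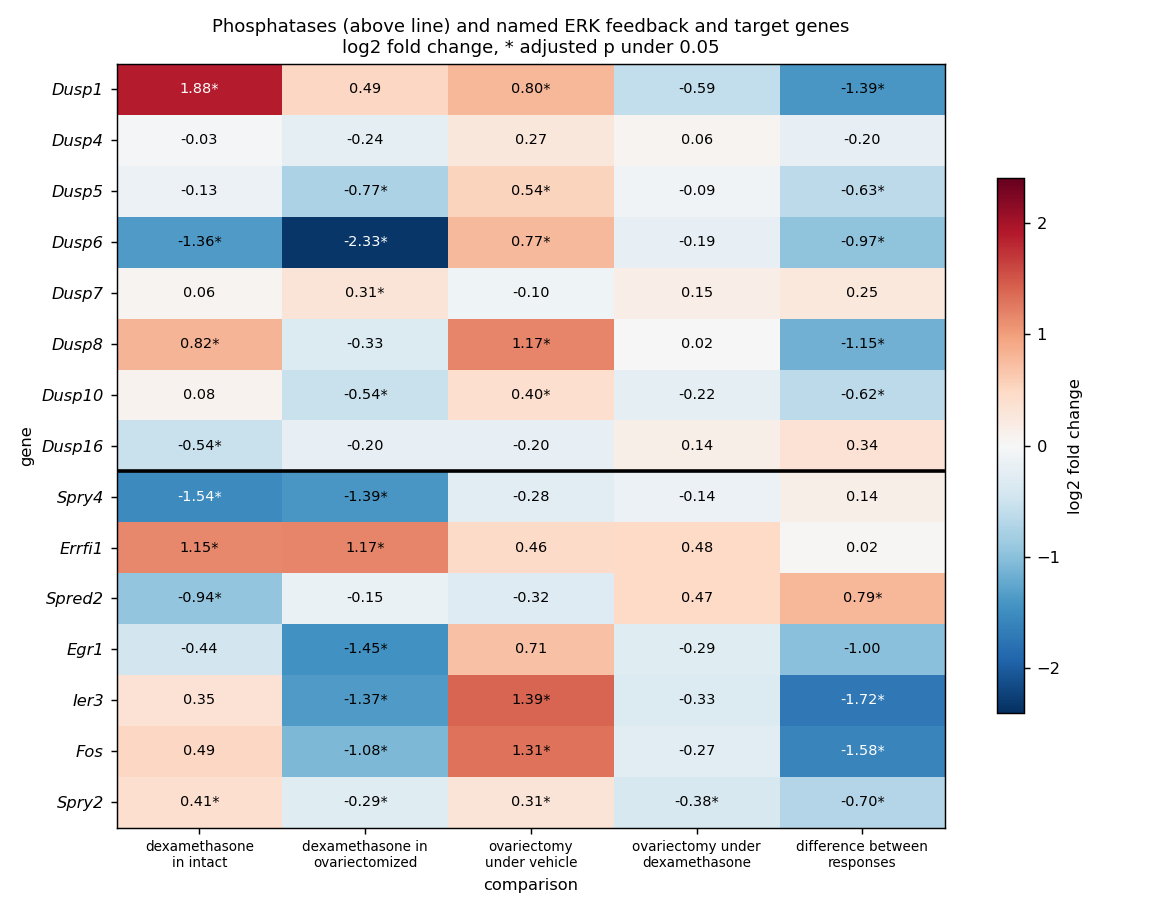
Log2 fold changes from limma (colour and printed value; an asterisk marks an adjusted p under 0.05) for the 8 phosphatases, above the line, and the named ERK feedback and target genes, below it (vertical axis), in the 5 comparisons (horizontal axis). In the column for dexamethasone in ovariectomized females, Dusp6 (-2.33), Egr1 (-1.45), Spry4 (-1.39) and Ier3 (-1.37) are the lowest.

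Of the atypical dual-specificity phosphatases, which lack the MAP kinase binding region of the members, 9 of 16 were tested. With dexamethasone 1 rose and 3 fell in intact females, where 48.8% of all genes were called. In ovariectomized females 1 rose and 2 fell, where 40.7% were called, so both counts are near the background. The gene that rose was Dusp14 in both, by 0.77 ± 0.13 (adjusted p = 0.000499) and 1.01 ± 0.13 (adjusted p = 0.000144). With ovariectomy under vehicle 2 were higher, Dusp23 by 0.38 ± 0.08 (adjusted p = 0.00557) and Dusp3 by 0.23 ± 0.07 (adjusted p = 0.0284), and Dusp14 was lower by 0.40 ± 0.13 (adjusted p = 0.0368). That count is near the 27.9% of all genes called there. Dusp2 did not pass in any of the 5 comparisons, with values from -0.16 to 0.22.

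Markers of other liver cells moved with some of these patterns. The neutrophil list, with S100a8, S100a9 and Csf3r tested of 6 genes, had summed levels of 7.16 to 7.52 in intact vehicle, 7.19 to 7.34 in intact dexamethasone, 7.53 to 7.87 in ovariectomized vehicle and 6.78 to 6.95 in ovariectomized dexamethasone libraries. The highest and the lowest group were thus those of Dusp5, Dusp6 and Dusp10. Of the 3 tested, 3 fell with dexamethasone in ovariectomized females (19.4% of all genes did), and 1 was higher with ovariectomy under vehicle (12.4% were). The defining markers Mpo and Cxcr2 averaged 1.03 and 2.26, below the floor. The cholangiocyte list had sums of 10.95 to 11.03, 11.01 to 11.23, 11.30 to 11.57 and 10.83 to 11.08 in the same order of groups. These sums mainly follow Spp1, which averaged 10.96, where Krt19, Krt7, Epcam and Sox9 averaged 5.17 to 6.42. Of its 5 tested genes of 6, 2 were higher with ovariectomy under vehicle (12.4% of all genes were), and Cftr averaged 2.02. With dexamethasone in ovariectomized females 2 fell (19.4% of all genes did). These were Epcam and Spp1 in both comparisons, and Krt19, Krt7 and Sox9 passed in neither. The part of these cells in the results of the phosphatases was not tested.

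Other marker lists moved with dexamethasone or with ovariectomy. All 4 tested B cell genes of 5 fell with dexamethasone in both gonadal states, as Dusp6 did. Of all genes 25.9% fell in intact and 19.4% in ovariectomized females. The B cell sums were 7.80 to 8.29 and 7.37 to 7.45 in intact and 7.82 to 8.14 and 7.11 to 7.22 in ovariectomized females. Of 7 tested Kupffer cell genes, 5 were lower with ovariectomy under vehicle (15.5% of all genes were), with sums of 13.60 to 13.67 against 13.13 to 13.35. Under dexamethasone 5 of the 7 were lower as well (5.08% of all genes were), with sums of 13.35 to 13.48 against 12.88 to 13.21. Of 8 stellate cell genes, 5 rose with dexamethasone in intact females (22.8% of all genes did), as Dusp1 and Dusp8 did, with sums of 12.92 to 13.32 against 13.53 to 13.74. In ovariectomized females 1 of the 8 rose (21.3% of all genes did), with sums of 12.79 to 13.30 and 12.99 to 13.21. The difference between responses was lower for 2 of the 8 (9.65% of all genes), and for 4 at an unadjusted p under 0.05. It was called lower for Dusp1, Dusp5, Dusp6, Dusp8 and Dusp10 too. Of the genes tested, the same held for 2 of 3 neutrophil, 2 of 5 cholangiocyte, 2 of 8 sinusoidal endothelial and 1 of 7 Kupffer cell genes. It was higher for 2 of 6 hepatocyte genes. Sinusoidal endothelial sums were 12.96 to 13.09 in intact vehicle and 13.30 to 13.71 in intact dexamethasone libraries. There 3 of 8 genes were higher and 1 lower, a count near the 48.8% of all genes called. T and NK cell sums stayed between 7.10 and 7.26, and 0 of 5 tested genes passed limma's test or had an unadjusted p under 0.05 in the 5 comparisons. Hepatocyte sums lay between 21.90 and 22.24. Their part in the results was not tested either.

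The genes outside the members whose levels were most like those of a member are named by Pearson's r over the 12 libraries, as a description in which points of a group share their treatment. For Dusp1 these were Hs3st3a1 (0.97), Gstm2 (0.95) and Zdhhc1 (0.95), and for Dusp6 they were Sort1 (0.97), Commd10 (0.97) and Efna3 (0.96). Dusp5 was most like Sik1 (0.96), Tm4sf1 (0.95) and Impdh1 (0.94), and Dusp8 was most like Rassf1 (0.95), Plk3 (0.95) and Jun (0.93). Dusp10 had Zfp825 (0.95), Fhl2 (0.94) and Ttc25 (0.92), and Dusp16 had Klf12, Lpp and Arl5b (each 0.95). The nearly level members had lower values, with Swsap1 (0.93), Fbxw8 (0.92) and Wars (0.90) for Dusp7 and Slbp (0.87), Anxa5 (0.84) and Crtap (0.84) for Dusp4.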

How the data were processed

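Per the labels' protocols, liver RNA (TRIzol, RNeasy) was made into TruSeq libraries and run on a NextSeq. The tools Trim Galore, TopHat2, HTSeq, DESeq and DESeq2 and the mouse build mm9 are listed in the submitters' processing notes, without versions. The authors deposited 1 table of log2 values, scaled between libraries, per the labels. How the log2 values were computed and which annotation was counted is not given in the sources used here. Values ran from -2.22 to 22.03 over 24962 entries, 6294 of them at 0 in every library. Read depth is unknown, so no counting interval is given.

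Where a symbol had several entries (392 symbols), that with the highest mean was used. Genes with a mean of at least 4 were tested. A single model over the 4 groups was fitted with limma 3.58.1 (R 4.3.3; eBayes with a variance trend, 8 residual degrees of freedom), and 5 contrasts were tested with Benjamini-Hochberg adjustment. The fit was tested on simulated data.

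The members and gene lists were chosen with earlier results of these data known. All members were named, with Dusp2, Dusp9, Fkbp5 and Tsc22d3. Of each other list up to 3 genes that passed were eligible per comparison, by size, and not all of them are reported here, though counts over lists include them. Genes like a member are the 3 with the highest r, clone symbols passed over. Alternatives were other filters, a pseudocount of 8, recentring, quantile normalization, other variance priors, library weights, a replicate block, a fit of the compared libraries alone, the mean of several entries, and each library left out.

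Promoters came from RefSeq (GRCm38.p6), and exon lengths, overlaps and shared sequence from GENCODE annotation of GRCm38, which is not the build of the table. Of the members, only Dusp8 shared 50-base words with another gene (0.187% of its words). The promoter motifs were chosen after the values and sequences had been seen.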

Additional observations from a re-analysis of the deposited data

Results flagged for a closer look

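By limma's test of the difference itself, the response to dexamethasone differed between gonadal states for 5 of the 8 phosphatases. Of all genes 24.9% were called in this test. On quantile normalization Dusp5 and Dusp8 lost their calls in limma's test (adjusted p = 0.0519 and 0.0518). The differences, ovariectomized minus intact, were -1.39 for Dusp1, -1.15 for Dusp8, -0.97 for Dusp6, -0.63 for Dusp5 and -0.62 for Dusp10.

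The same test passed for named genes of the other lists. Among the ERK feedback and target genes the differences were -1.72 for Ier3, -1.58 for Fos, -0.70 for Spry2 and 0.79 for Spred2. In the ERK cascade they were 1.31 for Erbb3, 0.44 for Met and 0.30 for Rps6ka3. In the p38 cascade they were 0.84 for Map2k6, 0.57 for Mapk14, -0.31 for Mapkapk2, -0.55 for Mapk12 and -0.60 for Mapk11, and in the JNK cascade 0.21 for Map2k7. The glucocorticoid-induced genes Fkbp5 and Klf9 differed by 1.01 and 0.97.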

How the results depend on the processing

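Of 897 values of a member under an alternative, 846 kept their direction and side of the threshold, 11 lost the call, 27 gained it and 13 changed sign; those 13 had not passed in the fit reported. Dusp6 kept its calls in all 4 comparisons where it had passed, under each alternative run. With a filter at a mean of 6, Dusp4, Dusp5 and Dusp8 were not tested, and 3 of the other 5 were called both with ovariectomy under vehicle (31.0% of all genes) and in the difference between responses (27.7%). Quantile normalization called 3 members in that difference (21.0% of all genes). Dusp5 (-0.48, adjusted p = 0.0519) and Dusp8 (-0.95, adjusted p = 0.0518) lost their calls in it. That normalization called 768 genes with ovariectomy under dexamethasone, against 1662, and the cause was not tested. There, recentring called 728 genes higher and 782 lower, against 1004 and 658. Library weights called 7 members with dexamethasone in each gonadal state (8560 genes in intact, 7378 in ovariectomized females), 6 with ovariectomy under vehicle (5919 genes), 3 under dexamethasone (5777) and 6 in the difference (6659). With only the libraries compared, 601 genes were called with ovariectomy under dexamethasone, and Dusp8 lost its call with dexamethasone in intact females (adjusted p = 0.0514). Signs changed with ovariectomy under dexamethasone for Dusp8 on recentring (-0.0070) and for Dusp5 on quantile normalization (0.020) and library weights (0.0017). Leaving out each library gave 3 to 6 members called with ovariectomy under vehicle and 0 to 1 under dexamethasone, and 2215 to 3989 and 207 to 1852 genes; the lowest counts were without the first intact vehicle and the third ovariectomized dexamethasone library, and the second also fell to 312 without the first intact dexamethasone library, 922 without the first and 993 without the second ovariectomized dexamethasone library. With dexamethasone in intact females it gave -0.024 to 0.13 for Dusp7, -0.24 to 0.079 for Dusp4 and -0.018 to 0.20 for Dusp10; with ovariectomy under dexamethasone it gave -0.050 to 0.27 for Dusp4, -0.29 to 0.36 for Dusp8 and -0.16 to 0.035 for Dusp5. Dusp16 and Dusp8 passed with dexamethasone in ovariectomized females, and Dusp4 with ovariectomy under vehicle, without the third intact dexamethasone library (adjusted p = 0.0437, 0.0439 and 0.0479).

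Over all genes, deviations of same-numbered libraries correlated by -0.23 to 0.40, and 6 of 18 pairs were over 0.1. Those of differently numbered libraries correlated by -0.47 to 0.42, and 10 of 36 pairs were over 0.1. The numbers thus showed no pairing over all genes, which does not settle it for single genes. For Dusp1 the second replicate was the lowest and the third the highest in each group. With the replicate number as a block, 1 member was called with ovariectomy under dexamethasone (Dusp1, adjusted p = 0.00663), Dusp1 passed with dexamethasone in ovariectomized females (adjusted p = 0.00111), and Dusp16 passed in that comparison (adjusted p = 0.0277), with ovariectomy under vehicle (adjusted p = 0.0371) and in the difference between responses (adjusted p = 0.0207). It changed no other call of a member.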
